A study of Mus musculus with 3 samples.

Results

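Palmitate, a saturated fatty acid, was compared with elaidate, a trans monounsaturated fatty acid of greater chain length, by the gene expression of the RAW264.7 macrophage line after exposure to each. The comparison used 2 of the 3 arrays of the series, 1 from cells given 500 µM palmitate for 6 hours and 1 from cells given 500 µM elaidate for 6 hours, each fatty acid coupled to albumin at a ratio of 2 to 1. The compounds differ both in chain length and in the double bond, which palmitate lacks, so the comparison, 1 pair at a matched dose and time, does not separate these features. The third array, from cells given oleate, the cis isomer of elaidate, at the same dose, time and ratio, is printed beside them. RAW264.7 is a transformed mouse line, so the cells stand for 1 established line and not for tissue macrophages, and all 3 groups shared its genotype, the albumin and the culture medium. Each difference below is the palmitate log2 value minus the elaidate log2 value of a gene, and a log2 difference of 1 is 2-fold. Of the 18820 genes with a probe set naming only them, 9410 had a mean log2 level over the 3 arrays that reached the median over genes, 4.14, and only these entered the counts. With 1 array per fatty acid and no array of untreated cells, no difference has a replicate check, no p-value could be given, and none shows a response relative to cells without added fatty acid.

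Long-chain fatty acids enter macrophages, are coupled to coenzyme A, and are then built into membrane and storage lipid or oxidised. Saturated fatty acids are known to stress the endoplasmic reticulum when they are built into membrane phospholipid, and the kinase PERK (Eif2ak3) and related kinases answer such stress by phosphorylating eIF2alpha. Translation of the transcription factor ATF4 then rises, and ATF4 switches on genes of amino acid supply together with its partners CHOP, ATF3 and C/EBP proteins. The same membrane holds the SREBP transcription factors, which are released to switch on cholesterol and fatty acid synthesis when sterols are scarce and are held back by sterols and by unsaturated fatty acids.

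The label of the cells was checked against marker genes. All 10 macrophage markers passed the filter, and Cd68, a lysosomal glycoprotein, and Ptprc, the leukocyte antigen CD45, had the same log2 level on every array, 11.77 and 9.93. The remaining 8 were lower on the palmitate array, with Mertk at a log2 difference of -1.74 and Lyz2, the macrophage lysozyme, at -0.64. Csf1r, the receptor of the macrophage growth factor, had log2 levels of 11.16 on oleate, 11.05 on elaidate and 10.70 on palmitate. None of 10 lymphocyte markers passed the filter. The markers of other types that did pass it were Col1a1 and Acta2 of 8 for fibroblasts, Batf3 and Ccr7 of 8 for dendritic cells and S100a8 of 9 for neutrophils and mast cells, each at an equal value on the palmitate and elaidate arrays, and Alb of 8 for adipocytes and hepatocytes, at a log2 difference of -0.16. Of 10 osteoclast markers 4 passed, all lower on the palmitate array, with Tnfrsf11a at -0.61 and Mmp9 at -0.35. In a bulk array, fewer cells with a transcript and less transcript per cell cannot be told apart.

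Between the palmitate and elaidate arrays, 92 genes were at least 2-fold higher on palmitate (0.978% of the 9410) and 82 at least 2-fold lower (0.871%), together 1.85%. At 1.5-fold the counts were 299 higher (3.18%) and 417 lower (4.43%). The log2 differences had a median of 0 and a standard deviation of 0.33, and 34.2% of genes had equal values on both arrays to within 1e-06. Among those that were not equal, 2630 genes were higher and 3565 lower on palmitate. At least 4-fold higher on palmitate were 14 genes and at least 4-fold lower 3, so the higher side had the longer tail. On the higher side Arntl, at 1.02, was the last gene inside the 2-fold limit and Zfp639 the first outside, and on the lower side these were Kmt5c and Klhl6, which differed from 2-fold by less than rounding. Foxo4 was the last gene inside the filter and Upp1 the first outside, both at a mean log2 level of 4.14 and a difference of 0. As a gauge of arrays without signal, 1155 olfactory and vomeronasal receptor genes had a standard deviation of 0.092, with 1 past 2-fold. Their median log2 level was 2.22, so they do not measure the error of expressed genes.

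**Figure D1:**
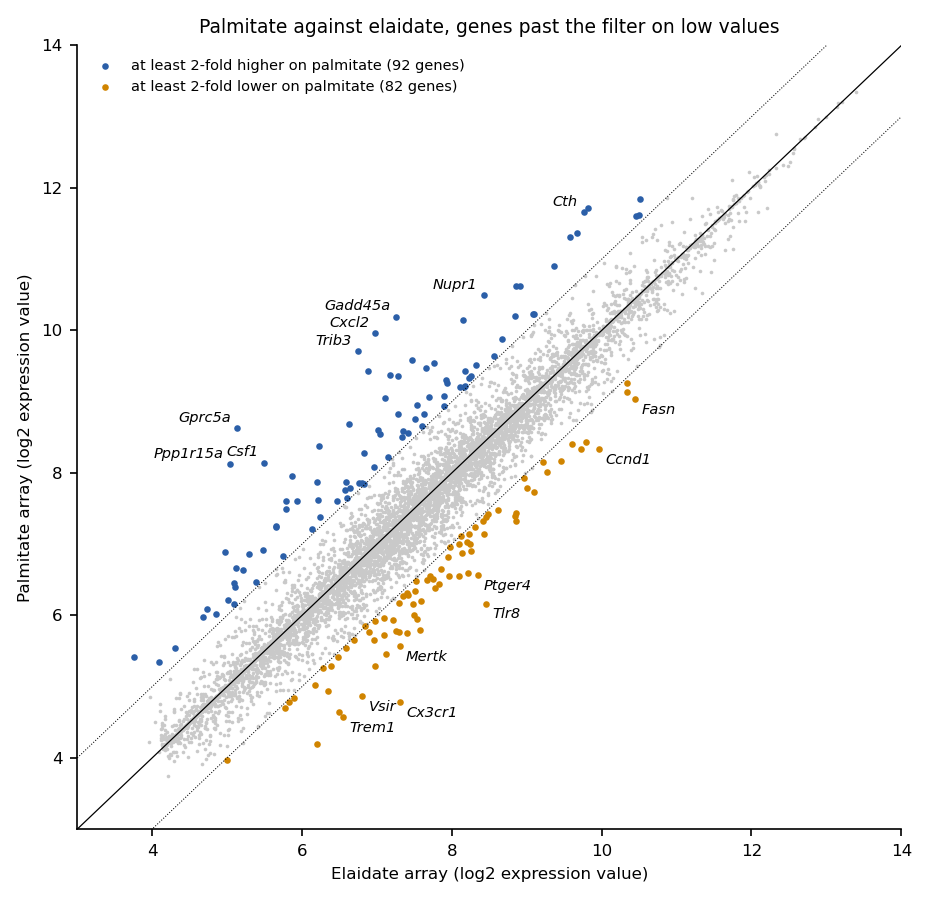
Log2 level on the palmitate array (vertical axis) against the elaidate array (horizontal axis), 1 point per gene past the filter; the solid line marks equal levels and the dotted lines 2-fold differences, with 92 genes above them in blue and 82 below in orange. The named points above the lines include Gprc5a, Ppp1r15a and Trib3, and those below include Cx3cr1, Tlr8 and Trem1.

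The members of 57 gene lists, drawn up by pathway, cell type and receptor family with earlier results of these data known, were then described list by list. Of the 92 genes higher on palmitate 44 were in at least 1 list, and of the 82 lower genes 32 were. The share of all 9410 genes that were in a list was not worked out, so no excess can be read from these counts. Stress genes lay mostly on the higher side: of 173 past the filter 102 were higher, 36 lower and 35 equal, with 24 at least 2-fold higher and 1 at least 2-fold lower. Lipid genes lay mostly on the lower side, with 94 of 142 lower, 25 higher and 23 equal, and 12 at least 2-fold lower against 4 higher. Genes of the receptor lists did so as well, with 94 of 159 lower, 36 higher and 29 equal. Of these 159, 12 were at least 2-fold lower and 6 at least 2-fold higher. Beside surface receptors the lists hold adaptors, endosomal sensors, C1q subunits and regulators of G protein signalling, with Rgs1 among the 6. Over all 9410 genes 27.9% were higher, 37.9% lower and 34.2% equal, so more genes were lower than higher without regard to any list, and 0.978% and 0.871% were at least 2-fold higher and lower. The medians of the stress, lipid and receptor genes were 0.08, -0.18 and -0.15 on the log2 scale, beside 0 over all genes.

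**Figure D2:**
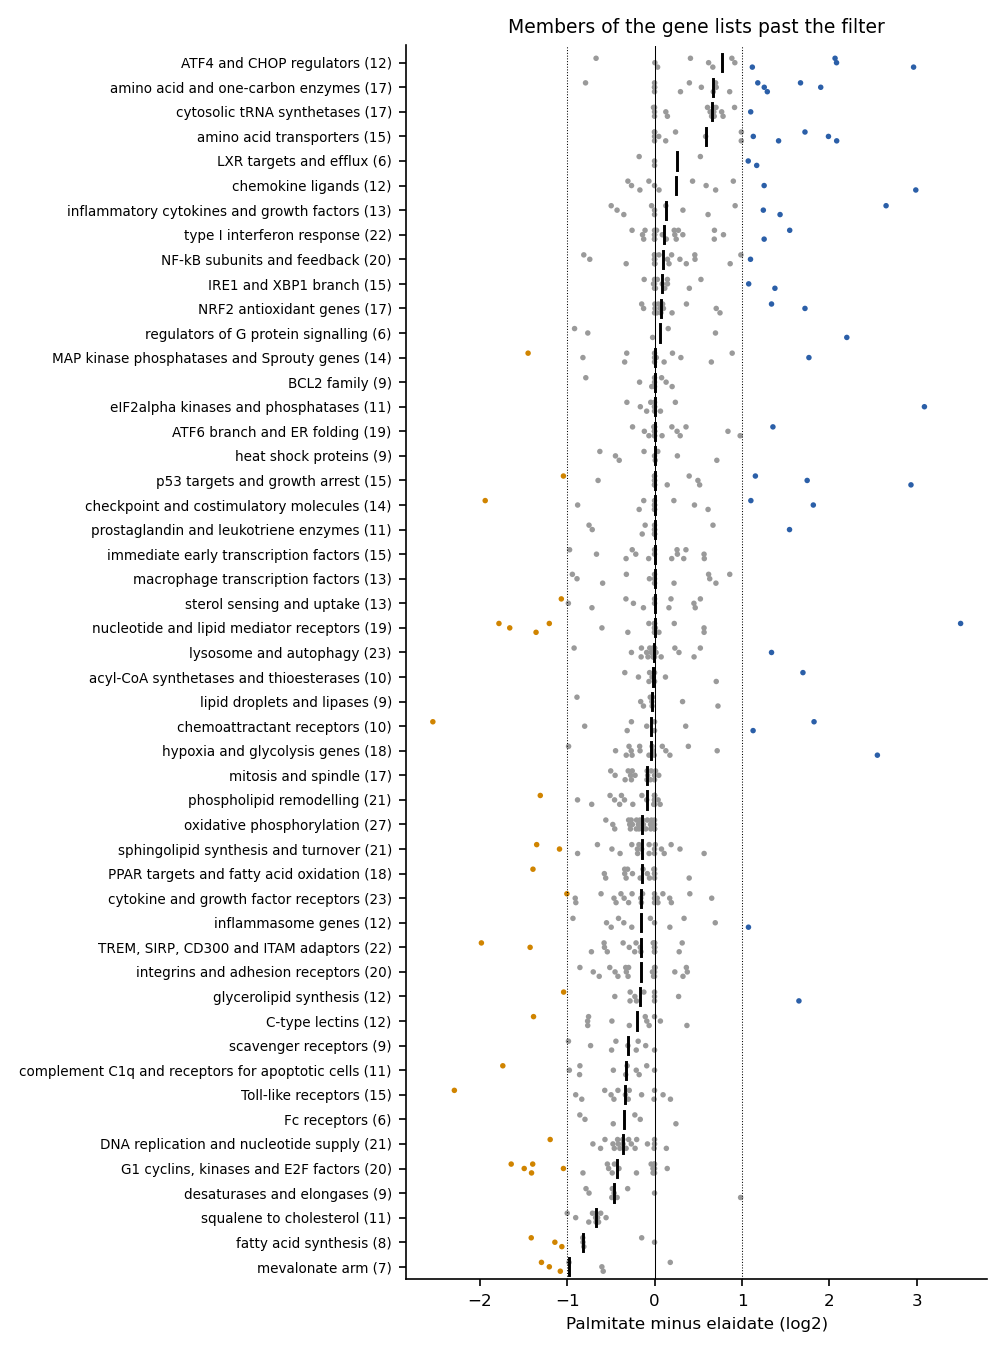
Palmitate minus elaidate log2 difference (horizontal axis) of every member past the filter, 1 point per gene, for each list with at least 5 such members (their number in brackets), cell type marker lists left out; black bars are list medians, and dotted lines mark 2-fold, with blue points higher and orange points lower. The ATF4 and CHOP regulators stand at the top with a median of 0.78 and the mevalonate arm of cholesterol synthesis at the bottom with -0.98.

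With palmitate, genes of the ATF4 pathway were higher than with elaidate, from its regulators down to the enzymes it supplies. Over the 4 lists that make it up the median log2 difference was 0.67, and 48 of 61 genes were higher, 3 lower and 10 equal. At least 2-fold higher were 15 of the 61, and 35 were at least 1.5-fold higher, beside 0.978% and 3.18% of all genes. The kinases that start the pathway were not among them. Eif2ak3, which senses stress in the endoplasmic reticulum, and Eif2ak4, which senses uncharged tRNA, had equal values on all 3 arrays, at log2 levels of 7.62 and 6.11. Eif2ak1, the haem-regulated kinase, and Eif2ak2, the kinase of double-stranded RNA, differed by -0.09 and -0.32.

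The largest stress difference was that of Ppp1r15a, the subunit that brings a phosphatase to eIF2alpha and reverses the block of translation. Its log2 levels were 5.01 on oleate, 5.04 on elaidate and 8.12 on palmitate, a difference of 3.09 or 8.49-fold. Only the palmitate array was high, and the arrays of the cis and trans isomers lay close together. Its constitutive counterpart Ppp1r15b differed by 0.07. Atf4 itself had log2 levels of 8.34 on oleate, 9.07 on elaidate and 9.95 on palmitate, a difference of 0.88. Trib3, a pseudokinase that binds AKT and restrains ATF4, stood at 6.03, 6.75 and 9.71 in the same order, a difference of 2.96 or 7.79-fold. Sesn2, a leucine sensor that holds back the growth kinase mTORC1, had log2 levels of 6.65, 7.28 and 9.36, and Nupr1, a small stress-induced chromatin protein, 7.58, 8.43 and 10.49. For Atf4, Trib3, Sesn2 and Nupr1 the elaidate array lay between the other arrays, nearer to oleate than to palmitate. Atf3, a transcription factor of many stresses, differed by 1.12, and Cebpg, the partner with which ATF4 binds DNA, by 0.92. The one regulator on the lower side was Trib1, a relative of Trib3, at -0.67. The gene of CHOP, Ddit3, was not analysed here.

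The DNA before the start of these genes was searched for the element that ATF4 and C/EBP proteins bind together, written TGATGNAA, on both strands of the 250 bases before each start in RefSeq promoter sequences of build GRCm38.p6. It was present in 10 of 58 promoters of the ATF4 pathway genes (17.2%), beside 3.45% of all 32851 promoters and 2.01% of those of genes past the filter. Promoters of genes at least 2-fold higher on palmitate held it in 10 of 86 cases (11.6%), and those of genes at least 2-fold lower in 7 of 95 (7.37%). The stretches below show it, in capitals with 30 bases on each side, in members of the ATF4 and eIF2alpha lists only. Printed are the 4 with the largest difference among those at least 2-fold different that held it.
Nupr1, chr7:126625543-126625610, minus strand: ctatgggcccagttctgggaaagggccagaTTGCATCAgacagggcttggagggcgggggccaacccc
Slc7a11, chr3:50443623-50443709, minus strand: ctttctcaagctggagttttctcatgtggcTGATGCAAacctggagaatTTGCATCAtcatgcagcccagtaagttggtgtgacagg
Chac1, chr2:119351019-119351086, plus strand: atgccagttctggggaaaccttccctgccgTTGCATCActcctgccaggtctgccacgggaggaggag
Pck2, chr14:55540133-55540200, plus strand: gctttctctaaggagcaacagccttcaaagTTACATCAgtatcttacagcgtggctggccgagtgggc
The match began 110 bases before the start of Nupr1, 193 before that of Chac1 and 103 before that of Pck2. Slc7a11 held 2 matches, beginning 66 and 47 bases before the start, on opposite strands. A match describes these letters and does not show that a factor bound there. No match of the other motifs searched lay in the stretches printed.

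Amino acid transporters were higher on palmitate for 12 of 15 genes and equal for 3, with a median log2 difference of 0.58. At least 2-fold higher were 5 of the 15, beside 0.978% of all genes. Slc1a4, a transporter of serine and other neutral amino acids, had log2 levels of 4.66 on oleate, 5.87 on elaidate and 7.95 on palmitate, a difference of 2.08. Slc6a9, the glycine transporter, stood at 7.77, 8.15 and 10.14. Slc7a11, which brings in cystine for glutathione, had log2 levels of 8.77 on oleate, 8.91 on elaidate and 10.63 on palmitate. The palmitate array was the high one in each, and Slc1a4 also set elaidate apart from oleate. Slc38a7, a lysosomal glutamine exporter, differed by 1.42 and Slc7a5, the large neutral amino acid transporter, by 1.13. Slc3a2, the common heavy chain of Slc7a5 and Slc7a11, and Slc7a1, the transporter of arginine and lysine, each differed by 0.99, just under 2-fold.

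Enzymes of amino acid and one-carbon metabolism had a median of 0.67, with 12 of 17 genes higher, 1 lower and 4 equal. At least 2-fold higher were 5 of the 17, beside 0.978% of all genes. Cth, which makes cysteine from cystathionine, had log2 levels of 8.95 on oleate, 9.76 on elaidate and 11.66 on palmitate, a difference of 1.90. Chac1, which breaks down glutathione, stood at 5.13, 5.94 and 7.61. The others past 2-fold were Gpt2, the mitochondrial alanine aminotransferase, at a difference of 1.29, Aldh18a1 of proline synthesis at 1.25 and Pck2, the mitochondrial phosphoenolpyruvate carboxykinase, at 1.18. Glutamine synthetase, Glul, was the lower one, at -0.79. Cytosolic aminoacyl-tRNA synthetases, which charge tRNA for translation, were higher for 13 of 17 genes, lower for 1 and equal for 3, with a median of 0.65. At least 1.5-fold higher were 11 of the 17, and 1 was at least 2-fold higher, Cars, the cysteine enzyme, at 1.10. Nars, for asparagine, followed at 0.91.

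**Figure D3:**
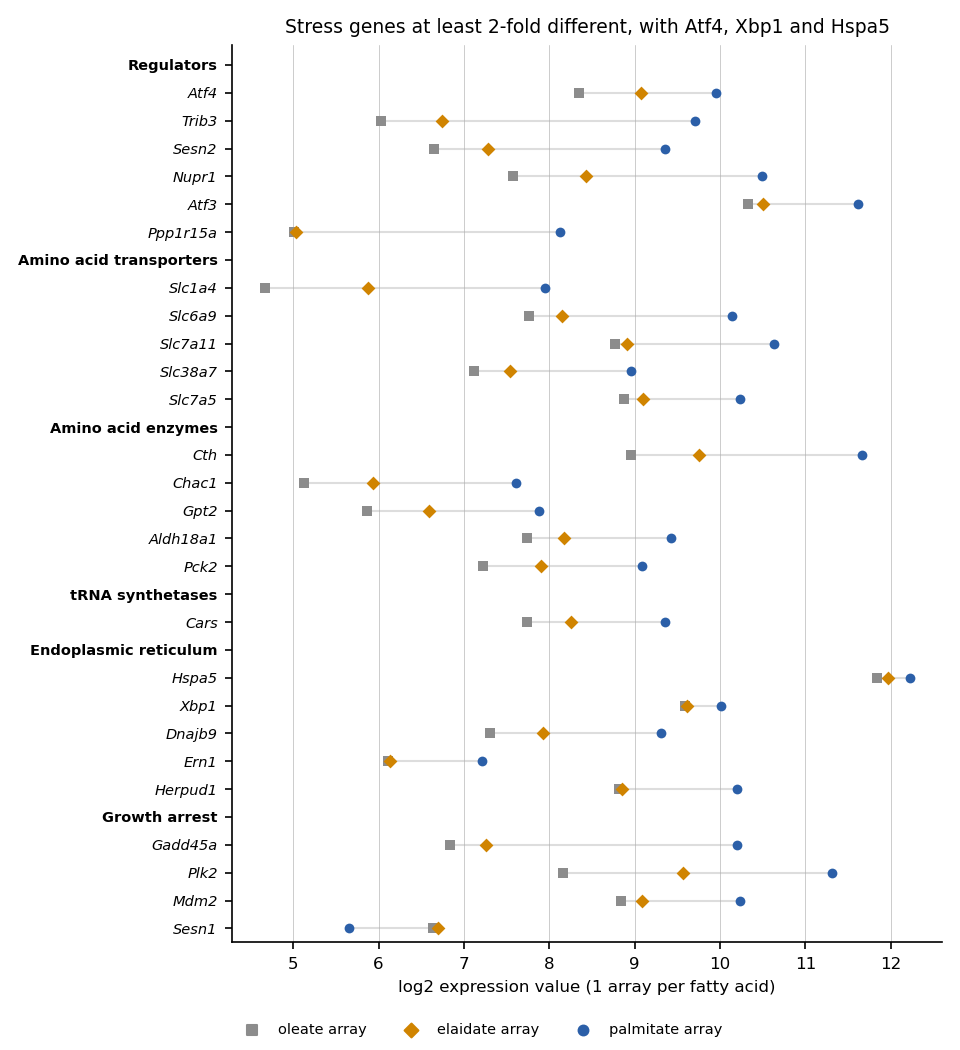
Log2 level on the oleate (grey squares), elaidate (orange diamonds) and palmitate (blue circles) arrays for stress genes at least 2-fold different between palmitate and elaidate, with Atf4, Xbp1 and Hspa5 added. Ndrg1 of the hypoxia list and Sqstm1 of the NRF2 list, also past 2-fold, are not drawn. Palmitate is the highest point of every row except that of Sesn1, and Ppp1r15a shows the widest gap between palmitate and elaidate.

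The folding branches of the unfolded protein response differed less than the ATF4 branch. The IRE1 and XBP1 list had a median of 0.09, from 10 higher, 2 lower and 3 equal genes, and the list of ATF6 targets and folding enzymes a median of 0, from 8 higher, 4 lower and 7 equal genes. At least 2-fold higher were 2 of 15 genes of the IRE1 and XBP1 list and 1 of 19 of the other. Of all genes 0.978% were, and no member of either list was at least 2-fold lower. Dnajb9, a co-chaperone that represses IRE1, had log2 levels of 7.30 on oleate, 7.93 on elaidate and 9.30 on palmitate. Ern1, which encodes IRE1, the nuclease that splices Xbp1, stood at 6.10, 6.13 and 7.21, and Herpud1, of the pathway that removes misfolded proteins, at 8.81, 8.85 and 10.20. Ern1 and Herpud1 thus had near-equal levels with oleate and elaidate and a higher level with palmitate. Ero1a, an oxidase of disulfide formation, differed by 0.98 and Atf6 by 0.84. Hspa5, the main chaperone BiP, had log2 levels of 11.84, 11.96 and 12.22, a difference of 0.26, and Xbp1 differed by 0.40. Several chaperones and oxidoreductases, among them Hsp90b1, Canx, P4hb and Pdia3, had a difference of 0.

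Other stress lists held a few genes past 2-fold, 4 of 15 for p53 targets, 2 of 17 for NRF2 targets and 1 of 18 for hypoxia genes, beside 1.85% of all genes. Gadd45a, a growth arrest gene that p53 and ATF4 both induce, had log2 levels of 6.83 on oleate, 7.26 on elaidate and 10.19 on palmitate, a difference of 2.93 or 7.63-fold. Plk2, a stress-induced polo-like kinase, stood at 8.16, 9.57 and 11.32, so that each array was apart from the next. Mdm2, the ubiquitin ligase of p53, differed by 1.15 and Sesn1, the p53-dependent relative of Sesn2, by -1.04. The list of p53 targets as a whole had 7 of 15 genes higher, 2 lower and 6 equal and a median of 0. Ndrg1, a stress and hypoxia gene, had log2 levels of 6.63, 6.88 and 9.43, a difference of 2.55. In the rest of the hypoxia and glycolysis list Hk2, a hexokinase, stood at 0.72, Pfkp, a phosphofructokinase, at 0.39, Vegfa at 0.13 and Pdk1, a kinase that closes pyruvate dehydrogenase, at -0.98. Of its 18 genes 12 were lower and 6 higher, with a median of -0.05. In the NRF2 list of antioxidant genes 14 of 17 were higher, most by little, with a median of 0.07. Beside Slc7a11, Sqstm1, the adaptor p62 that carries cargo to autophagy and releases NRF2, was past 2-fold, at log2 levels of 10.29, 10.51 and 11.84. Hmox1, haem oxygenase, differed by 0.71 and Nqo1, a quinone reductase often used as an NRF2 reporter, by 0.04. The heat shock list had 4 genes higher, 4 lower and 1 equal, with the cytosolic Dnajb1 at -0.63, Hsph1 at -0.45 and Hspa8 at -0.40 lowest, and the mitochondrial chaperone Hspa9 highest at 0.71. None of 9 BCL2 family genes passed 2-fold, with Bmf, a death-promoting member, furthest from 0 at -0.79.

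Cholesterol synthesis lay on the opposite side. With palmitate, 17 of its 18 genes were lower than with elaidate and 1 was higher, and the median log2 difference was -0.67. At least 1.5-fold lower were 16 of the 18, beside 4.43% of all genes, while 3 were at least 2-fold lower, beside 0.871%. In the mevalonate arm, which builds the isoprenoid units, Mvd, the mevalonate diphosphate decarboxylase, had log2 levels of 8.45 on oleate, 9.46 on elaidate and 8.16 on palmitate, a difference of -1.29. Hmgcs1, which makes the precursor HMG-CoA, stood at 9.68, 10.34 and 9.14, a difference of -1.20. Idi1, the isomerase of isopentenyl diphosphate, was measured by 2 probe sets that differed by -1.01 and -1.15. In each of these the elaidate array was the high one, and oleate lay nearer to palmitate than to elaidate. Pmvk followed at -0.98, and Ggps1, which leads to protein prenylation and away from sterols, was the exception at 0.18. In the arm from squalene to cholesterol all 11 genes were lower by similar amounts, from Hsd17b7, which fell just short of 2-fold, to Tm7sf2 at -0.55. Lss, lanosterol synthase, had log2 levels of 8.84, 9.86 and 8.96 and Cyp51, lanosterol demethylase, 9.51, 10.42 and 9.75, in the order oleate, elaidate and palmitate.

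The regulators of the pathway were less uniform. Srebf1 had the same log2 level on all arrays, 7.11, and Srebf2 differed by -0.33. Insig1, the sterol-sensing retention protein and itself an SREBP target, stood at 9.74, 10.78 and 9.80, a difference of -0.99. Stard4, a cytosolic sterol carrier, had log2 levels of 7.64, 8.30 and 7.24, a difference of -1.07. Genes that release cholesterol from lysosomes and stores went both ways, with Npc1 at 0.47 and Nceh1 at 0.45 but Npc2, the partner of Npc1, at -0.24 and Lipa, the lysosomal lipase, at -0.13. The ubiquitin ligase gene Mylip stood at 0.52. The sterol regulatory element, written TCACNCCAC, was found on either strand in 1 of 18 promoters of the cholesterol genes, beside 1.05% of all promoters. The CCAAT box, bound by NF-Y, which works together with SREBP at such genes, was found in 15 of the 18 (83.3%), beside 33.8% of all promoters. A high share was not particular to the cholesterol genes, since promoters of the endoplasmic reticulum lists held the box in 22 of 30 cases (73.3%). The promoter with the sterol element was that of Hmgcs1, with the match in capitals, beginning 137 bases before the start.
Hmgcs1, chr13:119690184-119690252, plus strand: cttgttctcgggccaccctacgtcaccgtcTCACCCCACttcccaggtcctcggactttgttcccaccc

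Fatty acid synthesis was lower on palmitate for 7 of 8 genes and equal for 1, with a median of -0.82. Fasn, fatty acid synthase, whose main product is palmitate, had log2 levels of 10.09 on oleate, 10.45 on elaidate and 9.04 on palmitate, a difference of -1.41. Aacs, which activates acetoacetate, stood at 8.09, 8.62 and 7.48, and Acss2, which activates acetate, at 7.24, 8.48 and 7.42. The palmitate array was the low one for Fasn and Aacs, whereas for Acss2 the elaidate array was the high one and the others lay together. Acaca, acetyl-CoA carboxylase, and Acly, ATP citrate lyase, each differed by -0.82. The desaturases and elongases had a median of -0.46, and 7 of 9 were lower. Fads2, which opens the synthesis of polyunsaturated fatty acids, differed by -0.75, Elovl4 by -0.78 and Scd2, a stearoyl-CoA desaturase, by -0.48, at log2 levels of 11.40, 12.20 and 11.72. Elovl3, an elongase of saturated and monounsaturated chains, was the one higher gene, at 0.98. Scd1 did not pass the filter and had equal values with palmitate and elaidate.

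Enzymes that handle the acyl chain went both ways. Acot2, a mitochondrial thioesterase that frees fatty acids from coenzyme A, had log2 levels of 9.22 on oleate, 9.68 on elaidate and 11.37 on palmitate, a difference of 1.70. Cpt1a, which commits fatty acids to entry into mitochondria, stood at 7.98, 7.78 and 6.39, a difference of -1.39. Both set palmitate apart from the 2 unsaturated fatty acids, in opposite directions. Other genes of fatty acid oxidation and targets of PPAR receptors differed little. The list had a median of -0.15 over 18 genes, of which 13 were lower, 1 was higher and 4 were equal, and no member but Cpt1a was past 2-fold. Angptl4, an inhibitor of lipoprotein lipase named in the title of the series, had log2 levels of 5.95, 5.87 and 5.61, a difference of -0.25. Slc27a1, a fatty acid transport protein, differed by 0.71, and the fatty acid binding proteins Fabp5 and Fabp4 by -0.57 and -0.33.

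In glycerolipid synthesis the named genes also split. Gpat3, which adds the first acyl chain to glycerol phosphate, had log2 levels of 3.76 on oleate, 3.76 on elaidate and 5.41 on palmitate, a difference of 1.65; the lower levels are under the limit of the filter. Lpin1, the phosphatase that yields diacylglycerol, stood at 6.25, 7.52 and 6.48, a difference of -1.04, with elaidate as the high array. Dgat1 and Dgat2, which complete triglyceride, had equal values on all arrays. The droplet coat gene Plin2, a common readout of fatty acid loading, had log2 levels of 11.13, 11.33 and 11.30, a difference of -0.03. Among droplet and lipase genes, Lpl, lipoprotein lipase, differed by -0.89 and Hilpda, an inhibitor of droplet lipolysis, by 0.73.

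More of the membrane lipid genes were lower than higher, as over all genes, of which 37.9% were lower, 27.9% higher and 34.2% equal. Of 21 genes of phospholipid synthesis and remodelling 12 were lower, 2 higher and 7 equal. Mboat1, a lysophospholipid acyltransferase that prefers oleoyl chains, had log2 levels of 7.12 on oleate, 6.96 on elaidate and 5.65 on palmitate, a difference of -1.31. Lpcat1, which favours saturated chains, differed by -0.88, Pcyt2, of phosphatidylethanolamine synthesis, by -0.72 and Lpcat3, which inserts polyunsaturated chains, by -0.51. In the sphingolipid list 13 of 21 were lower and 6 higher, with a median of -0.15. Its members past 2-fold were both ceramide synthases, Cers4 at log2 levels of 8.10, 8.25 and 6.90 and a difference of -1.35, and Cers6 at a difference of -1.09, the palmitate array being low for each. Cers5 differed by -0.65 and Sgpp1, a phosphatase of sphingosine phosphate, by -0.88. Both main cholesterol exporters were higher: Abca1, which loads apolipoprotein A-I, had log2 levels of 5.14, 4.86 and 6.03, and Abcg1, which loads high-density lipoprotein, 6.87, 7.15 and 8.22. They were 2 of 6 genes of the LXR list past the filter, of which the transporter Abca7 stood at -0.18, Mylip at 0.52, and Apoe and Nr1h3, the gene of LXRalpha, were equal on all arrays.

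**Figure D4:**
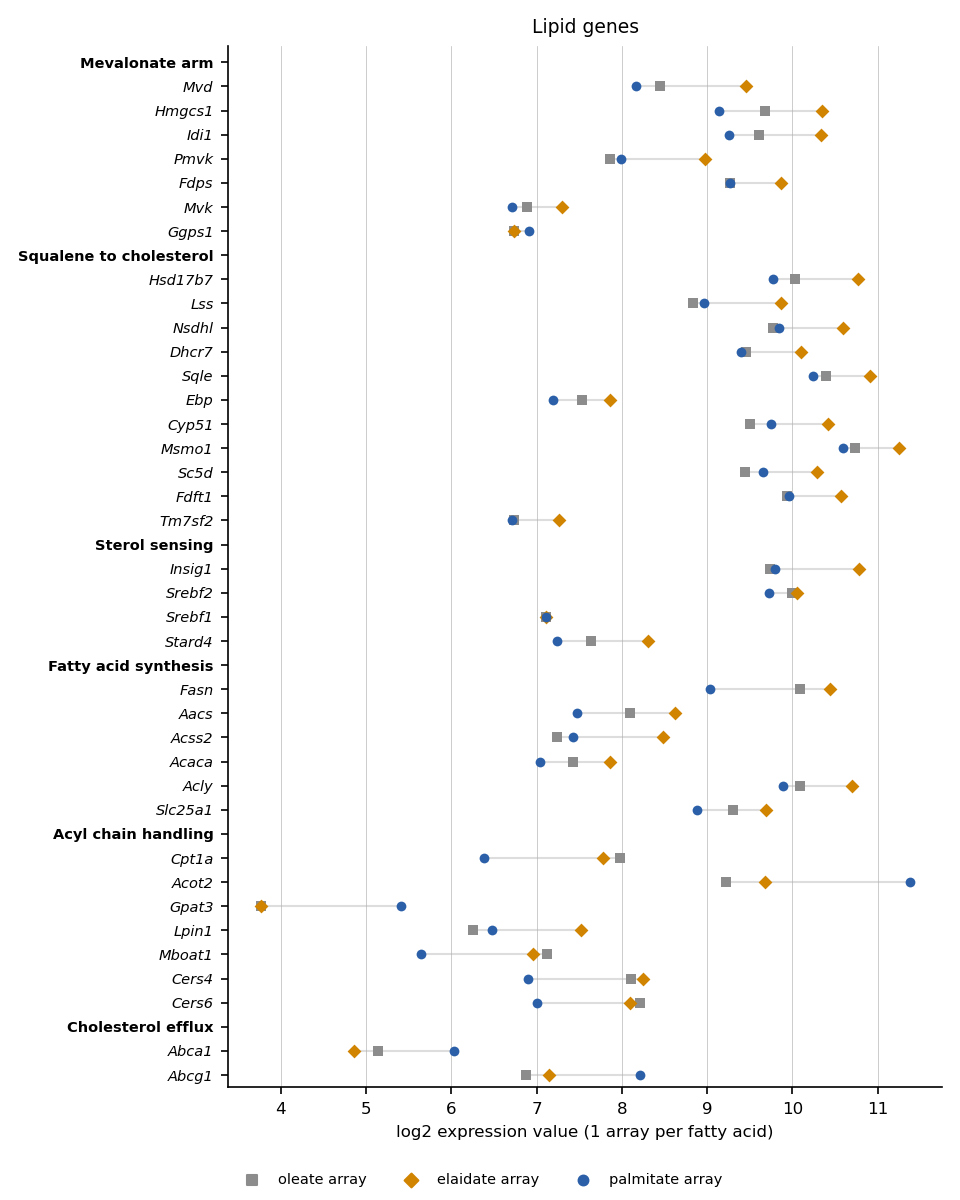
Log2 level on the oleate (grey squares), elaidate (orange diamonds) and palmitate (blue circles) arrays for genes of lipid synthesis, chain handling and cholesterol efflux. In the rows of cholesterol synthesis and sterol sensing, except Ggps1 and Srebf1, elaidate is the right-most point, with oleate and palmitate to its left. For Abca1 and Abcg1 palmitate is the right-most point. In the rows of Cpt1a, Mboat1, Cers4 and Cers6 palmitate stands to the left of both others.

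Among surface receptors and endosomal sensors, the Toll-like receptor list had a median log2 difference of -0.33, beside 0 over all genes, and 12 of its 15 genes were lower, 2 higher and 1 equal. Tlr8, an endosomal sensor of single-stranded RNA, had log2 levels of 8.57 on oleate, 8.45 on elaidate and 6.16 on palmitate, a difference of -2.29 or 4.89-fold. Its relative Tlr7 differed by -0.90, Tlr5, the flagellin receptor, by -0.57, Tlr13, which recognises bacterial ribosomal RNA, by -0.83 and Tlr9, the sensor of unmethylated DNA, by -0.46. The main surface receptors of bacterial lipid showed less: Tlr2 had the same log2 level on all arrays, 10.35, and Tlr4, the endotoxin receptor, stood at 6.92, 7.16 and 7.35, a difference of 0.18. In the list of TREM, SIRP and CD300 receptors with their adaptors, 13 of 22 were lower, 2 higher and 7 equal. Over all genes 37.9% were lower, 27.9% higher and 34.2% equal. Trem1, which amplifies inflammatory signals, had log2 levels of 7.06, 6.55 and 4.57, and Nfam1, a receptor with an ITAM signalling motif, 9.38, 8.86 and 7.43. Some inhibitory receptors of the list were among the lower ones too, with Cd33 at -0.58 and Pilra at -0.57. Other inhibitory receptors were not, with Sirpa and Cd300a at 0 and Lilrb4a at 0.28. Treml4 stood at 0.32. Trem2, the lipid-binding receptor of the same family, differed by -0.01 and the shared adaptor Tyrobp by -0.36. Among C-type lectins 9 of 12 were lower, with Clec4a1 at 9.99, 9.72 and 8.34, while Clec4e, the Mincle receptor, stood at 0.37. Of 6 Fc receptor genes 5 were lower, Fcgr4 by the most at -0.85, and Fcgr2b, the inhibitory receptor for IgG, was the higher one at 0.24.

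The largest differences in both directions were those of Gprc5a, an orphan receptor counted in the mediator receptor list, and Cx3cr1, a chemoattractant receptor. No other member of the mediator list was at least 2-fold higher. Of 10 chemoattractant receptors 3 were higher and 5 lower, beside 27.9% higher and 37.9% lower of all genes. Of 19 nucleotide and lipid mediator receptors 6 were higher and 7 lower, a balance near that of all genes. At least 2-fold lower were 4 of the 19, beside 0.871% of all genes. Gprc5a, an orphan receptor first found as a retinoic acid target, had log2 levels of 4.91 on oleate, 5.13 on elaidate and 8.63 on palmitate, the largest of all differences at 3.50 or 11.3-fold. Cx3cr1, the receptor of fractalkine, stood at 7.55, 7.31 and 4.78, the lowest of all at -2.54 or 5.80-fold lower. In both, oleate and elaidate lay within a log2 distance far smaller than that to palmitate. Ccrl2, an atypical receptor that binds chemerin, had log2 levels of 5.18, 5.79 and 7.61, and Ptafr, the receptor of platelet-activating factor, 7.11, 6.96 and 8.09. The other members of the mediator and chemoattractant lists past 2-fold were lower. Ptger4, a prostaglandin E2 receptor, stood at 8.11, 8.35 and 6.57, a difference of -1.78, and Cysltr1, a leukotriene receptor, at 6.92, 7.11 and 5.46, a difference of -1.66. P2ry6, which responds to UDP, differed by -1.36 and Gpr183, a receptor for oxysterols, by -1.20. Rgs1, which shortens signalling by such G protein coupled receptors, had log2 levels of 6.22, 7.18 and 9.37, and Rgs2 differed by 0.70, whereas Rgs14 and Rgs18 stood at -0.91 and -0.76.

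Receptors for lipoproteins and dying cells were lower or equal throughout. The 9 scavenger receptor genes had a median of -0.30, with 8 lower, 1 equal and none past 2-fold. Scarb1, which takes up cholesterol from high-density lipoprotein, had log2 levels of 9.83 on oleate, 10.14 on elaidate and 9.15 on palmitate, a difference of -0.98. Scarb2, a lysosomal receptor, differed by -0.73, Lrp1, which clears lipoprotein remnants, by -0.49, Marco by -0.44 and Msr1, a receptor of modified lipoproteins, by -0.19. Cd36, a fatty acid translocase, did not pass the filter and was equal on all arrays at a log2 level of 2.27. Of 11 genes for complement C1q and apoptotic cell receptors 10 were lower and 1 equal, beside 37.9% and 34.2% of all genes. Mertk, a kinase receptor that binds dying cells through bridging proteins, stood at 7.67, 7.30 and 5.57, a difference of -1.74. The C1q subunit genes C1qa and C1qc differed by -0.97 and -0.86, and Itgav, the alpha v integrin, by -0.85.

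Receptors of cytokines and adhesion went both ways. Of 23 cytokine and growth factor receptors 13 were lower, 7 higher and 3 equal, beside 3565 lower and 2630 higher of all 9410 genes, a similar balance. Il10ra, of the receptor of the anti-inflammatory cytokine IL-10, had log2 levels of 8.20 on oleate, 8.12 on elaidate and 7.12 on palmitate, and was the only member of the list past 2-fold, by a narrow margin. Csf2rb, the common beta chain for GM-CSF, differed by -0.91, Il6ra by -0.90 and Tnfrsf1b, a TNF receptor, by 0.65. Il7r, which was on no list and is named after its value was seen, stood at 7.16, 7.76 and 9.54, a difference of 1.78. Among 20 integrin and adhesion genes 12 were lower and 5 higher, with Itgb2, the common chain of leukocyte integrins, at -0.70 and Selplg, the selectin ligand, at -0.63. Checkpoint molecules split. Vsir, the gene of the inhibitory receptor VISTA, had log2 levels of 7.25 on oleate and 4.87 on palmitate and differed by -1.94 between palmitate and elaidate, while Cd274, the gene of the inhibitory ligand PD-L1, stood at 6.85, 7.66 and 9.47, a difference of 1.82. Icosl, a costimulatory ligand, differed by 1.10 and Cd52, a small surface glycoprotein, by -0.88.

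**Figure D5:**
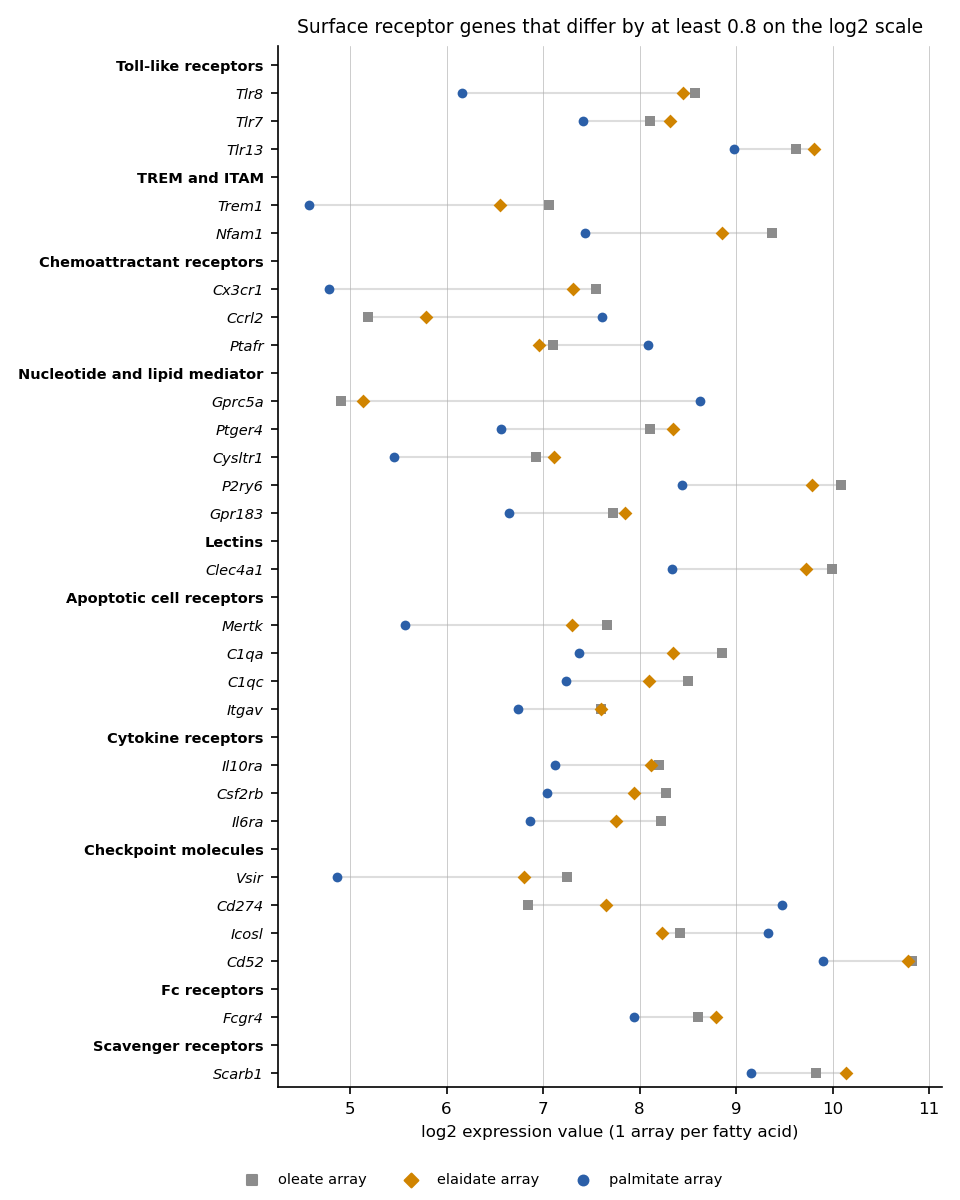
Log2 level on the oleate (grey squares), elaidate (orange diamonds) and palmitate (blue circles) arrays for members of receptor lists, by family. Drawn are members that differed by at least 0.8 between palmitate and elaidate, C1q subunits among them. Receptors on no list, such as Il7r, and regulators of G protein signalling are not drawn. Gprc5a, Ccrl2, Ptafr, Cd274 and Icosl have palmitate to the right of the other points, and every other row has it to the left.

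Genes of secreted ligands, and inflammatory genes beside them, held some of the largest differences, while most of their list members differed less. Cxcl2, a chemokine for neutrophils, had log2 levels of 7.06 on oleate, 6.98 on elaidate and 9.96 on palmitate, a difference of 2.99 or 7.93-fold. Csf1, the ligand of Csf1r, stood at 4.91, 5.50 and 8.14, a difference of 2.65, and its receptor gene at -0.35. Osm, oncostatin M, differed by 1.44, Cxcl10, an interferon-induced chemokine, by 1.25 and Il23a, a subunit of IL-23, by 1.24. The classical cytokines were not among them: Tnf differed by 0.32 and Il1b by -0.50, and Il6 did not pass the filter. Of 12 chemokine genes 7 were higher and 4 lower, with a median of 0.24. Of 20 genes of NF-kB and its feedback 12 were higher and 3 lower, with a median of 0.10. Over all genes 27.9% were higher and 37.9% lower. At least 2-fold higher were 2 of the 12, 1 of the 20 and 3 of 13 cytokine and growth factor genes, beside 0.978% of all genes. Traf1, a signalling adaptor, was past 2-fold at 1.10, Nfkbib stood at 0.99 and Tnip3, a feedback inhibitor, at -0.81. Ptgs2, the inducible cyclooxygenase, had log2 levels of 9.19, 9.36 and 10.91, while the leukotriene genes Alox5ap and Alox5 differed by -0.75 and -0.71. Interferon response genes were higher for 13 of 22 and lower for 4, beside 27.9% and 37.9% of all genes. Among them Rsad2, an antiviral enzyme, stood at 6.53, 7.27 and 8.82. Inflammasome genes went both ways, with Casp4, the sensor of intracellular endotoxin, at 1.07 and Nlrc4 at -0.93. Dusp1, a phosphatase that switches off p38 and JNK, differed by 1.77 and Dusp6, the phosphatase of ERK, by -1.45.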

How the data were processed

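RNA of RAW264.7 cells was hybridised to Affymetrix whole-transcript arrays, 1 array per fatty acid. The authors deposited 1 log2 expression value for each probe set, from RMA per the submitters' processing notes; no version is given in the sources used here. RMA summarises probes by median polish, which can return exactly equal values on arrays that differ little, and it makes array distributions alike. The values were used as deposited. Of 35556 probe sets, 21218 had 1 gene symbol in the platform annotation, 1881 several and 12457 none; only the first kind was used, and 21185 of them matched RefSeq by gene identifier. Values of several probe sets of a gene were averaged (1386 genes). Median log2 values were 3.57, 3.58 and 3.61 on the oleate, elaidate and palmitate arrays. Arrays have no depth, and the number of arrays limits precision.

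The comparison, its members and the gene lists were chosen with earlier results of these data known. Named were the 20 highest and 20 lowest genes (predicted, small RNA and olfactory genes left out), every list member past 2-fold, otherwise up to 4 members furthest from 0, and a fixed set of regulators and partners; Il7r and some smaller list members, such as Nars, Tlr9, Hmox1, Nqo1, Vegfa, Npc1, Npc2, Clec4e and Fcgr2b, were added after their values were seen. Promoter sequences were from RefSeq and covered 7666 of the 9410 genes. Alternatives were other filters, fold limits, centring, cyclic loess (limma 3.58.1, R 4.3.3, span 0.7, 3 iterations) and the probe set with the highest mean. Python 3.11.15, numpy 2.4.6, pandas 2.3.3 and matplotlib 3.10.9 were used, and the counting was tested on simulated data.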

Additional observations from a re-analysis of the deposited data

How the results depend on the processing

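Every gene at least 2-fold different kept its side of 0 under array centring, loess normalisation and the choice of the probe set with the highest mean, and moved by at most 0.07 on the log2 scale. Counts of genes at least 2-fold higher and lower were 93 and 85 without the filter, 92 and 82 with a filter on the 2 arrays compared, 91 and 99 with centring, which moved the median of all genes by -0.03, 92 and 80 with loess and 95 and 86 with the highest probe set. A filter at the 75th percentile left 4705 genes, with 53 higher and 43 lower. The 1.5-fold limit gave 299 and 417, and the 3-fold limit 33 and 15. Under the 75th percentile filter the medians of the inflammatory cytokine list, then 2 genes, and the inflammasome list, then 7 genes, changed sign to -0.052 and 0.18, since fewer members were counted. Without the filter the scavenger receptor median moved from -0.30 to 0 over 17 genes. With the highest probe set 14 gene differences moved, none of them 2-fold, Fabp5 to -0.84 among them. No paired analysis was possible because each fatty acid has 1 array and no fit was made. Without replicate arrays, the spread between cultures is unknown for every difference given.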

Other observations

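Growth genes lay on the lower side with palmitate relative to elaidate. The list of G1 cyclins, kinases and E2F factors had a median log2 difference of -0.43, and 16 of its 20 genes were lower, 5 of them at least 2-fold, beside 37.9% and 0.871% of all genes. Ccnd1, the D-type cyclin that carries growth factor signals into the cycle, had log2 levels of 10.16 on oleate, 9.97 on elaidate and 8.33 on palmitate, and Ccnd3 7.89, 7.49 and 6.00. Ccne1, the cyclin of S phase entry, differed by -1.41, the repressor E2f8 by -1.39 and Cdkn2c, an inhibitor of the D-cyclin kinases, by -1.04. Beside the same 37.9%, replication genes were lower for 18 of 21, with Rrm2, a ribonucleotide reductase subunit, at -1.19 and the 6 helicase genes Mcm2 to Mcm7 between -0.57 and -0.30. Mitosis genes were nearer to 0, at a median of -0.09 with none past 1.5-fold. The genes of oxidative phosphorylation had a median of -0.14, with 23 of 27 lower beside 37.9% of all genes, 4 equal and none past 1.5-fold. Among macrophage transcription factors, Maf and Irf8 stood at -0.94 and -0.89, and Id2 and Mitf at 0.86 and 0.70.

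Of the 40 genes at the ends of the distribution, several were on no list. Higher on palmitate were Tent5c, a poly(A) polymerase, at a log2 difference of 2.15, Adh7, an alcohol dehydrogenase, at 2.12, the acute phase gene Saa3 at 2.06, Aqp9, a channel for glycerol and water, at 1.95, Cox6a2, a cytochrome oxidase subunit best known from muscle, at 1.91 and Lcn2, a protein that binds bacterial siderophores, at 1.90. Lower were Rnase6 at -1.85, Asb2 at -1.78, Tifab at -1.68, Lfng, a glycosyltransferase that modifies Notch, at -1.66, Rin2 at -1.62, Tnfaip8 at -1.59, Crip1 at -1.54, Tmem50b and Pradc1 at -1.53 each and Nbeal2 at -1.48. Dennd4a was measured by 9 probe sets, each higher on palmitate, by 0.80 to 1.56. Probe sets with no gene symbol held many differences: of 3764 past the level of the filter 143 were at least 2-fold higher and 79 lower, and of 854 with several symbols 8 and 6. Among the 9410 genes past the filter the shares were 0.978% and 0.871%.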
